A study of Mus musculus with 2 samples.

Results

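The genes described here were 4 chemokine ligands, *Ccl17*, *Ccl22*, *Ccl19* and *Ccl20*, and 3 chemokine receptors, *Ccr4*, *Ccr7* and *Ccr8*, which made up 7 of the 27998 genes in the deposited tables. They were chosen by name as the skin-homing and lymph-node-homing chemokine axes, and all 7 had counts in both libraries. Single-cell RNA-seq was run on 1 library of control ear skin and 1 library of ear skin with allergic contact dermatitis (ACD), a T cell reaction to a hapten. Both came from ICR mice, an outbred strain, aged 7 to 8 weeks. Mice of the ACD group were sensitized on the back with 1.0% 2,4-dinitrofluorobenzene (DNFB), elicited on the ears with 0.2% DNFB on day 6, and sampled 60 hr later. What treatment the control mice had, if any, is not given in the sources used here. Skin was digested with collagenase D and DNase1 and dead cells were removed, and whether cells of several mice were pooled is not given in the sources used here. The methods speak of 3 samples loaded, of which 2 libraries were analysed here.

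Chemokines are secreted proteins that guide leukocytes along gradients, and their receptors are G protein-coupled. CCL17 and CCL22 both bind CCR4, which skin-homing T cells, regulatory T cells and group 2 innate lymphoid cells (ILC2) carry. CCL19 binds CCR7, the receptor that naive and central memory T cells use to enter lymph nodes and that maturing dendritic cells use to leave the skin through lymphatic vessels. CCL20 is made by epithelium and draws cells with CCR6, and CCR8, whose mouse ligands include CCL1 and CCL8, is found on skin-resident T cells and on regulatory T cells.

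The libraries held 12895 control and 13163 ACD barcodes, with 99037698 and 126566870 unique molecular identifiers (UMIs, one per captured transcript). Kept barcodes had over 200 and under 5000 genes, no more than 25000 UMIs and less than 8% of UMIs from mitochondrial genes, which left 12213 control and 11665 ACD cells with medians of 6850 and 7447 UMIs. The libraries shared 50 barcodes, 47 of them among kept cells. Cells were put into classes by listed marker genes that did not include the 7 members, and a class is written with "-like" for that reason. Dermal fibroblast (dFB)-like cells numbered 5823 in control and 3328 in ACD, T/NK/ILC-like cells 799 and 3264, chondrocyte-like cells 1721 and 1288, keratinocyte-like cells 164 and 127, endothelial-like cells 132 and 112, and dendritic or Langerhans (DC)-like cells 26 and 83. Ambiguous cells, in which markers of a second class came close to those of the first, numbered 2192 and 1718, and 12.5% of all kept cells lay near that limit. The level of a gene is its UMIs in a class per 1000000 UMIs of the class, and ranges in parentheses are exact 95% intervals that cover counting error only. Shares of cells with a UMI are given after every cell was thinned to 2000 UMIs, with chondrocyte-like cells as the background except for *Ccl17*. This left out 68 control and 40 ACD dFB-like cells, 3 and 4 chondrocyte-like cells, 43 and 72 T/NK/ILC-like cells and no DC-like cell. Median UMIs before thinning were 7289 and 9513 in dFB-like, 8328 and 10213 in chondrocyte-like, 3561 and 5347 in T/NK/ILC-like and 8458 and 11494 in DC-like cells. With 1 library a group there was no replicate check and no test of ACD against control, and a difference between the conditions cannot be told apart from a difference between these libraries.

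The ligands lay in different classes, apart from *Ccl22* and *Ccl17*, which shared DC-like cells. In ACD, dFB-like cells held 95.3% of *Ccl19* UMIs, DC-like cells 91.1% of *Ccl22* UMIs and keratinocyte-like cells 60.7% of *Ccl20* UMIs. *Ccl17* was divided between DC-like cells with 38.4% and chondrocyte-like cells with 30.8%. All 3 receptors were found mainly in T/NK/ILC-like cells, at 89.6% for *Ccr4*, 85.0% for *Ccr8* and 69.5% for *Ccr7*. Endothelial-like cells, of which 112 control and 79 ACD cells had mainly lymphatic markers, gave 1 *Ccl19* UMI in each library, 1 *Ccl17* UMI in ACD, and no *Ccl22* or *Ccl20*.

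**Figure D1:**
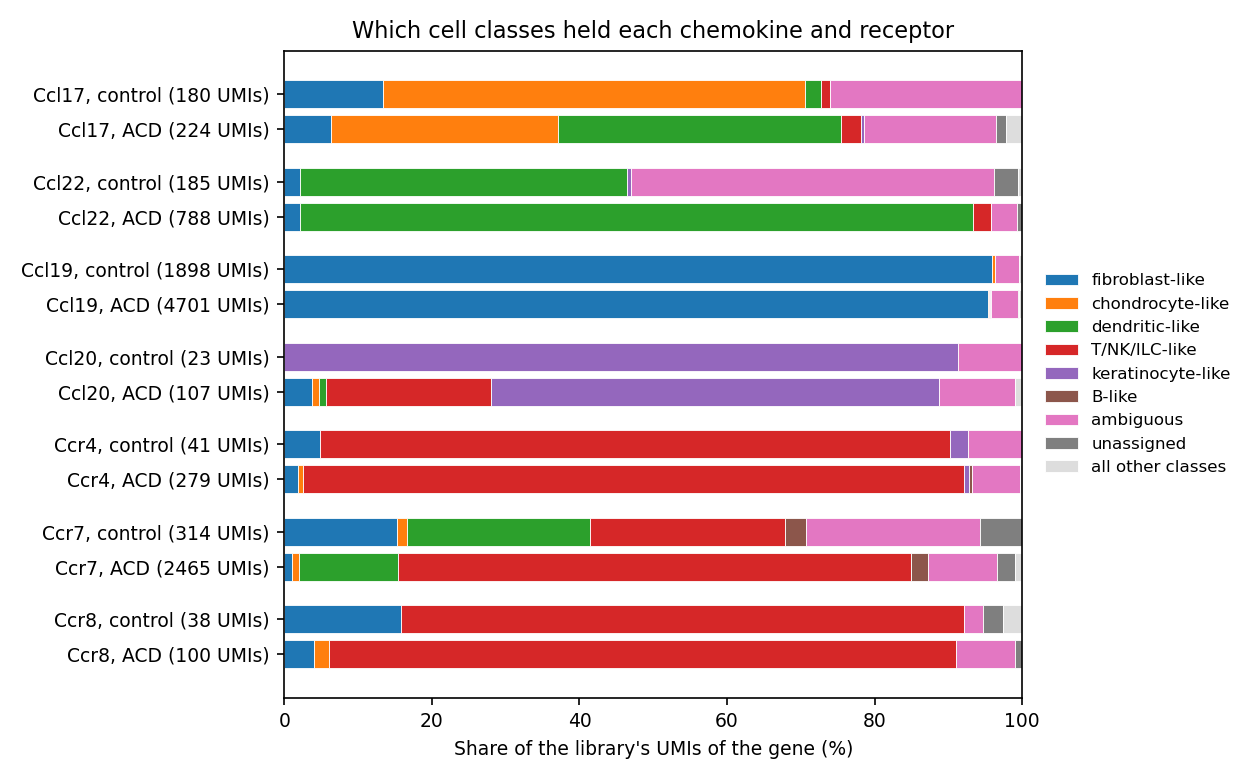
Percent of each member's UMIs that lay in each cell class, for the control and the ACD library (stacked bars, total UMIs of all kept cells as the base). *Ccl19* is filled by dFB-like cells in both libraries (95.9% and 95.3%), while the *Ccr7* bar is filled by T/NK/ILC-like cells to 26.4% in control and 69.5% in ACD.

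*Ccl17* (ENSMUSG00000031780, chr8:94810453-94812036, GRCm38) and *Ccl22* (ENSMUSG00000031779, chr8:94745590-94751699) are neighbors on the same strand, 58754 bases apart. Their promoters are shown because these neighbors encode ligands of 1 receptor yet did not share all of their cells. Sequences are from RefSeq on GRCm38.p6, plus strand, and end before the annotated transcripts begin. The *Ccl17* stretch is chr8:94810203-94810452 and the *Ccl22* stretch chr8:94745434-94745589.
Ccl17: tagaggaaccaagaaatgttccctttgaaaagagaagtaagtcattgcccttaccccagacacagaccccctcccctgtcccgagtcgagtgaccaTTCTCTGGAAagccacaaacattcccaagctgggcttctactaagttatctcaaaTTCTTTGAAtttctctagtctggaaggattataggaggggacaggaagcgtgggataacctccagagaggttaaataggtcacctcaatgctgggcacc
Ccl22: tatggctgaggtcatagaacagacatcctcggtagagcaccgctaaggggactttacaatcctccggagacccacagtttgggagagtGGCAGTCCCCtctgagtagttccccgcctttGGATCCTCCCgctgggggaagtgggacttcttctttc
Capitals mark matches, on either strand, to 3 motifs, the NF-kB-type GGGNNNNNCC and the STAT-type TTCNNNGAA and TTCNNNNGAA. *Ccl17* had 1 match to each STAT-type motif and none to the NF-kB-type one, and *Ccl22* had 2 matches to the NF-kB-type motif and none to the others. Of 32851 promoter windows of 300 bases, 50.8% held GGGNNNNNCC, 8.30% TTCNNNGAA and 6.95% TTCNNNNGAA. These matches are descriptions of letters in a window and not binding sites.

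*Ccl22*, a CCR4 ligand of activated dendritic cells, was mostly in DC-like cells in ACD, and in control was divided between DC-like and ambiguous cells. In control it had 82 UMIs in 7 of 26 DC-like cells, a level of 342 (272 to 424), and in ACD 718 UMIs in 26 of 83 cells, a level of 721 (669 to 776). The log2 ratio was 1.08 (0.75 to 1.42). The ACD share of *Ccl22* UMIs in DC-like cells was 91.1% (88.9 to 93.0%) and the control share 44.3%, with 91 control UMIs (49.2%) in 4 ambiguous cells. Of all 185 control UMIs, 92.4% lay in 5 cells, of which 1 was DC-like with 69 UMIs and the pair with 65 and 24 UMIs were ambiguous. Without the 1 DC-like cell with the most UMIs in each library the log2 ratio was 3.44. With 1 more marker required of each cell it was 3.55, and with clusters in place of marker classes 0.22. The ratio was also small when cells of any class with many mature DC markers were counted as DC-like. Its size thus depended on a few control cells. ACD was higher in each of these settings, but no interval is given for the small values, so they do not settle a direction. Chondrocyte-like cells had no *Ccl22* UMI in either library, and 3 counts would have been levels of 0.193 and 0.213.

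Within DC-like cells, *Ccl22* lay mainly in those with the markers of mature dendritic cells, which had 77 UMIs in 3 control cells and 656 UMIs in 14 of 15 ACD cells. Their levels were 2351 and 3976, and the log2 ratio was 0.76 (0.42 to 1.12). UMIs per mature DC-like cell were 1, 7 and 69 in control and ranged from 0 to 117 in ACD, so the spread among cells of this class was wide in both libraries. Conventional type 1 (cDC1)-like cells gave 3 UMIs in control and 12 in ACD, levels of 51.0 and 58.4. Cells of the remaining DC-like group gave 1 and 50, of which 1 ACD cell held 40. Langerhans-like cells, 7 in control and 10 in ACD, had 1 and 0 *Ccl22* UMIs. *Ccl22* itself was among the leading genes of the DC-like class, although it was not used to gate it.

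*Ccl17*, the other CCR4 ligand, was in DC-like cells and, at lower levels, in the cartilage cells of the ear. DC-like cells had 4 UMIs in 2 of 26 control cells, a level of 16.7 (4.54 to 42.7), and 86 UMIs in 13 of 83 ACD cells, a level of 86.4 (69.1 to 107). The log2 ratio was 2.37 (0.96 to 4.28), on few control UMIs. Mature DC-like cells held 4 and 66 of these UMIs, at levels of 122 and 400. The ratio was 4.36 with 1 more marker required of each cell, and under thinning to 2000 UMIs it depended on the random draw, with 0 control and 14 ACD UMIs in 1 draw (at least 0.55) and 1 and 19 in another (2.57). With 50 or more UMIs over both libraries, 3 members were counted in DC-like cells, and *Ccl17* and *Ccl22* were at least 2-fold higher in ACD while *Ccr7* was not. Among all 3027 genes so counted in DC-like cells, 6.84% were at least 2-fold higher and 1.85% at least 2-fold lower.

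Chondrocyte-like cells had 103 *Ccl17* UMIs in 94 of 1721 control cells, a level of 6.61 (5.40 to 8.02), and 69 UMIs in 62 of 1288 ACD cells, a level of 4.91 (3.82 to 6.21). The log2 ratio was -0.43 (-0.89 to 0.02), an interval that includes no difference. No chondrocyte-like cell had more than 3 *Ccl17* UMIs. *Ccl17* was spread thinly over chondrocyte-like cells, whereas a few DC-like cells held many UMIs. After thinning to 2000 UMIs, 0.931% (0.533 to 1.51%) of control and 1.09% (0.597 to 1.82%) of ACD chondrocyte-like cells had a *Ccl17* UMI, against 0.174% and 0 of dFB-like cells. Unthinned shares were 5.46% and 4.81% in chondrocyte-like cells. dFB-like cells held 24 and 14 *Ccl17* UMIs, at levels of 0.515 and 0.403, never more than 1 a cell. Of 11530 genes counted in chondrocyte-like cells, 1.73% were at least 2-fold higher and 0.425% at least 2-fold lower, and *Ccl17* was neither.

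DC-like cells with *Ccl17* mostly had *Ccl22* too, while most DC-like cells with *Ccl22* had no *Ccl17* UMI. In ACD, 12 of 13 DC-like cells with *Ccl17* also had *Ccl22* (92.3%), and 11 of those 13 had *Ccr7*. Conversely, *Ccl17* was found in 12 of the 26 DC-like ACD cells with *Ccl22* (46.2%) and in 2 of 7 in control (28.6%). Among all kept cells, 13 of 140 ACD cells with *Ccl17* (9.29%) and 3 of 165 control cells (1.82%) also had *Ccl22*. Of the 26 DC-like ACD cells with *Ccl22*, 14 had *Ccr7* (53.8%).

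**Figure D2:**
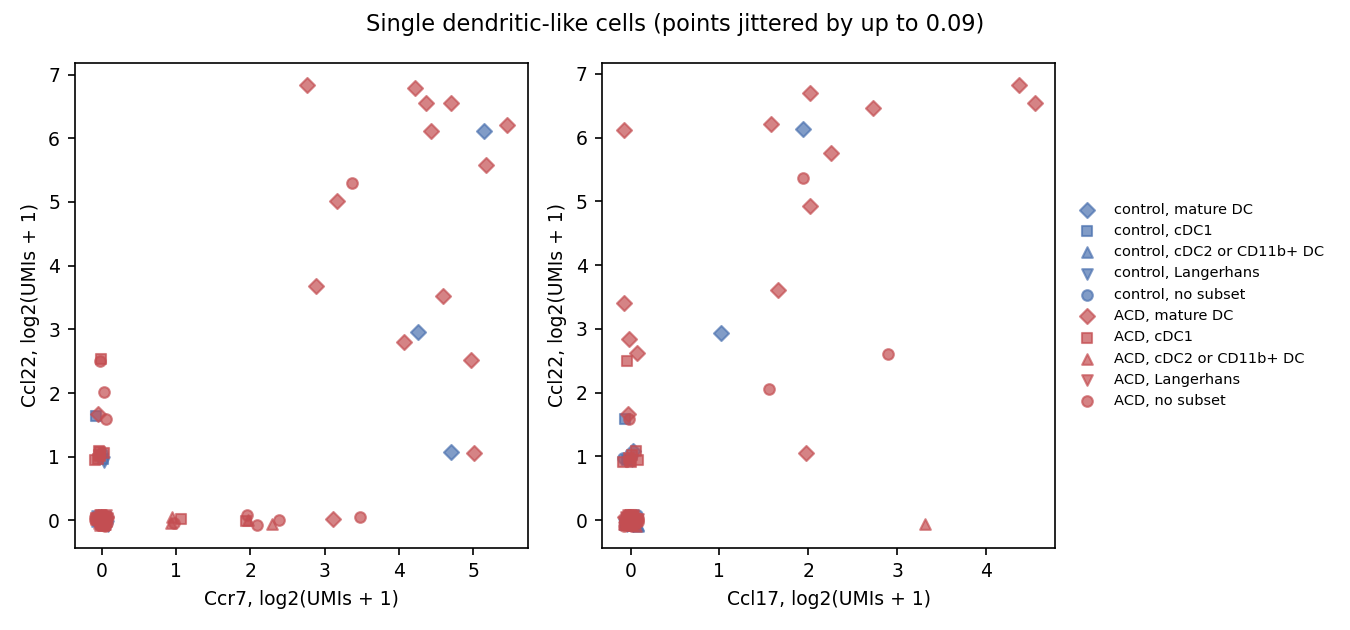
UMIs of *Ccl22*, *Ccl17* and *Ccr7* in single DC-like cells of the control and ACD libraries, by DC-like subset. Most of the UMIs of all 3 genes lie in mature DC-like cells, which number 3 in control and 15 in ACD.

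*Ccl19* (ENSMUSG00000071005, chr4:42754525-42756577, minus strand) encodes a CCR7 ligand that stromal cells of lymph nodes make. It was held by dFB-like cells, with 1821 UMIs in 798 of 5823 control cells and 4481 UMIs in 769 of 3328 ACD cells. Levels were 39.0 (37.3 to 40.9) and 129 (125 to 133), a log2 ratio of 1.73 (1.65 to 1.80). With all cells thinned to 2000 UMIs the ratio was 1.41. The share of dFB-like cells with a UMI after thinning was 5.58% (4.999 to 6.20%) in control and 10.9% (9.87 to 12.0%) in ACD, and 0.0582% and 0.156% in chondrocyte-like cells. Unthinned shares in dFB-like cells were 13.7% and 23.1%. *Ccl19* and *Ccr7* were the members counted in dFB-like cells, *Ccl19* was at least 2-fold higher in ACD, as were 3.47% of 13254 genes, with 1.06% at least 2-fold lower. Neither library had a *Ccl19* UMI in DC-like cells.

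*Ccl19* UMIs were concentrated in a small number of dFB-like cells, more so in ACD. The 10 cells with the most UMIs held 9.34% of the dFB-like total in control and 16.5% in ACD, and the top 100 held 41.2% and 57.0%. The highest cell had 27 UMIs in control and 131 in ACD. dFB-like cells with a UMI of *Cxcl9*, a chemokine gene induced by interferon gamma, numbered 31 in control and 470 in ACD, and in ACD they held 62.2% of the dFB-like *Ccl19* UMIs. Their *Ccl19* level was 126 (92.2 to 169) in control and 422 (406 to 438) in ACD. In dFB-like cells with no *Cxcl9* UMI the levels were 38.4 and 60.3, a log2 ratio of 0.65 (0.56 to 0.75). Cells with *Cxcl9* were deeper, which raises their share of raw UMIs. Median UMIs with and without *Cxcl9* were 13881 and 8972.5 in ACD, and 10363 and 7278 in control. After thinning, *Ccl19* was found in 29.9% of ACD dFB-like cells with *Cxcl9* and 7.77% of those without, and in control in 19.4% and 5.50%.

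The difference in *Ccl19* between libraries was not of 1 size over the fibroblast populations that single marker genes set apart. Levels in cells with a UMI of *Coch* were 24.4 in control and 185 in ACD, a log2 ratio of 2.92. With *Pi16*, a marker of adventitial progenitors, they were 31.7 and 156 (2.30), and with *Cyp2f2* 65.5 and 268 (2.03). *C7* cells had 23.3 and 61.4 (1.40), and *Gdf10* cells 21.5 and 36.6 (0.76). The *Ccl19* level was higher in ACD in each of these 5 populations, which overlap because a cell may carry several of the genes. In *Gdf10* cells the log2 interval was 0.16 to 1.38, and thinned shares with a *Ccl19* UMI were alike, 4.48% and 4.72%. Thinned shares were 3.32% and 9.48% in *C7* cells and 5.37% and 15.3% in *Pi16* cells. They were 3.67% and 14.8% in *Coch* cells and 10.7% and 25.9% in *Cyp2f2* cells. *Coch* cells were 15.7% of dFB-like cells in control and 27.4% in ACD, and *Cyp2f2* cells 25.4% and 15.1%.

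**Figure D3:**
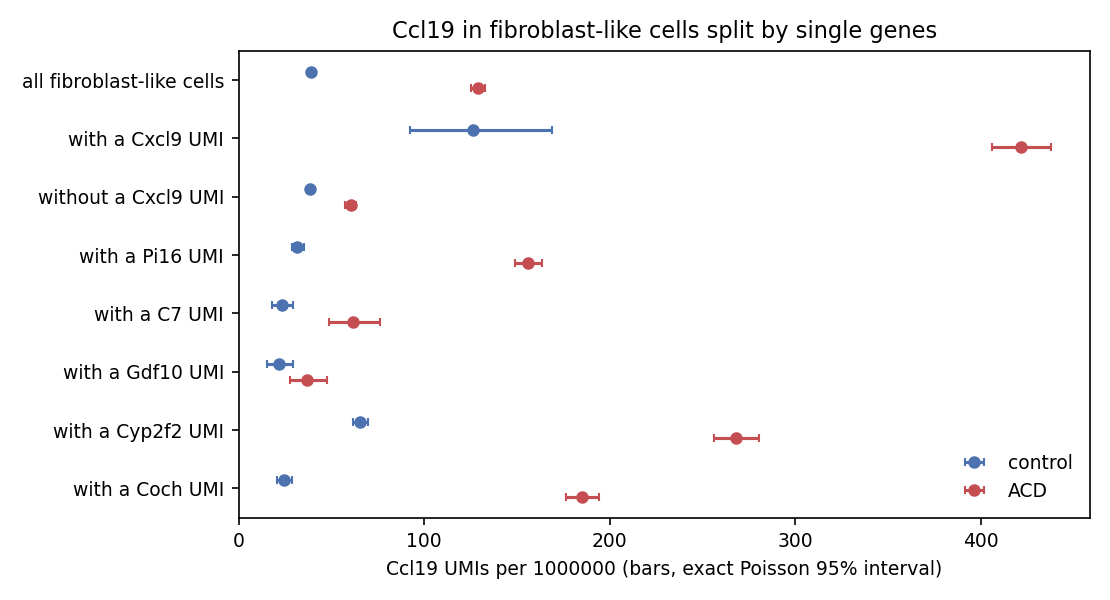
*Ccl19* level (UMIs per 1000000, exact 95% Poisson intervals) in dFB-like cells with a UMI of each named gene, control and ACD. The cells with *Cxcl9* in ACD stand highest, at 422, and the *Gdf10* cells show the smallest step of the marker-gene populations, from 21.5 to 36.6.

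*Ccl19* has a near-identical gene on the same chromosome, *Gm2564* (ENSMUSG00000091938, chr4:42629719-42631714). Their transcripts of 745 and 707 bases aligned over 707 bases with 8 mismatches (98.9% identity), 3 of them in the last 300 bases, the end that this assay reads. How reads were divided between them was not tested and is uncertain. The ratio of *Ccl19* to *Gm2564* UMIs was 1.38 in control and 1.27 in ACD in dFB-like cells, and 0.158 and 0.190 in chondrocyte-like cells, so it was not the same in every class. *Gm2564* had 1321 control and 3515 ACD UMIs in dFB-like cells, and the sum of both genes had levels of 67.4 and 230 and a log2 ratio of 1.77 (1.71 to 1.83). The ratio for the sum was thus close to that for *Ccl19* alone. The second *Ccl19* identifier, on an unplaced scaffold, had 0 UMIs.

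*Ccl20* (ENSMUSG00000026166, chr1:83116766-83119167) encodes the ligand of CCR6. Its promoter is shown because it was the only member with its largest share in an epithelial class, and it holds an NF-kB-type match of a symmetric form. The stretch is chr1:83116516-83116765 of GRCm38.p6, plus strand, from RefSeq.
Ccl20: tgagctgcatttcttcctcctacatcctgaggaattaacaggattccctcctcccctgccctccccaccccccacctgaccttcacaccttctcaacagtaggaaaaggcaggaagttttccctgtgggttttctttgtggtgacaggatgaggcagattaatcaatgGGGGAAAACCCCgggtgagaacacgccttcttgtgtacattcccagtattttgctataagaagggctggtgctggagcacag
Capitals mark 3 overlapping matches to GGGNNNNNCC, and neither STAT-type motif was found. Keratinocyte-like cells had 21 *Ccl20* UMIs in 8 of 164 control cells, a level of 9.14 (5.66 to 13.97), and 65 UMIs in 8 of 127 ACD cells, a level of 36.4 (28.1 to 46.4). The log2 ratio was 1.99 (1.27 to 2.78), yet 1 ACD cell held 50 of the 65 UMIs, and without the 1 top cell of each library it was 0.37. Of 6997 genes counted in keratinocyte-like cells, 2.59% were at least 2-fold higher and 1.43% at least 2-fold lower. Thinning to 2000 UMIs left too little to give a direction, since 1 random draw kept 2 control UMIs and 1 ACD UMI (log2 ratio -0.52) and another kept 2 and 5 (1.80).

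Most *Ccl20* was in barcodes that the filter removed. Of 106 control UMIs 83 were outside it, and of 423 ACD UMIs 316 were, mainly in barcodes with over 25000 UMIs. With all deposited barcodes, keratinocyte-like cells had 100 *Ccl20* UMIs in 13 of 206 control cells and 363 in 33 of 257 ACD cells. Levels were then 25.9 (21.04 to 31.5) and 42.3 (38.1 to 46.9), a log2 ratio of 0.71 (0.39 to 1.04). Of these UMIs, 50 lay in 1 control cell and 138 in 1 ACD cell. ACD was higher with and without the filter, by different amounts, and the filtered cells are part of all barcodes. T/NK/ILC-like cells had 24 *Ccl20* UMIs in 11 ACD cells, of which 20 lay in 7 CD8+ T-like cells, and 0 in control, where 3 counts would have been a level of 0.890.

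**Figure D4:**
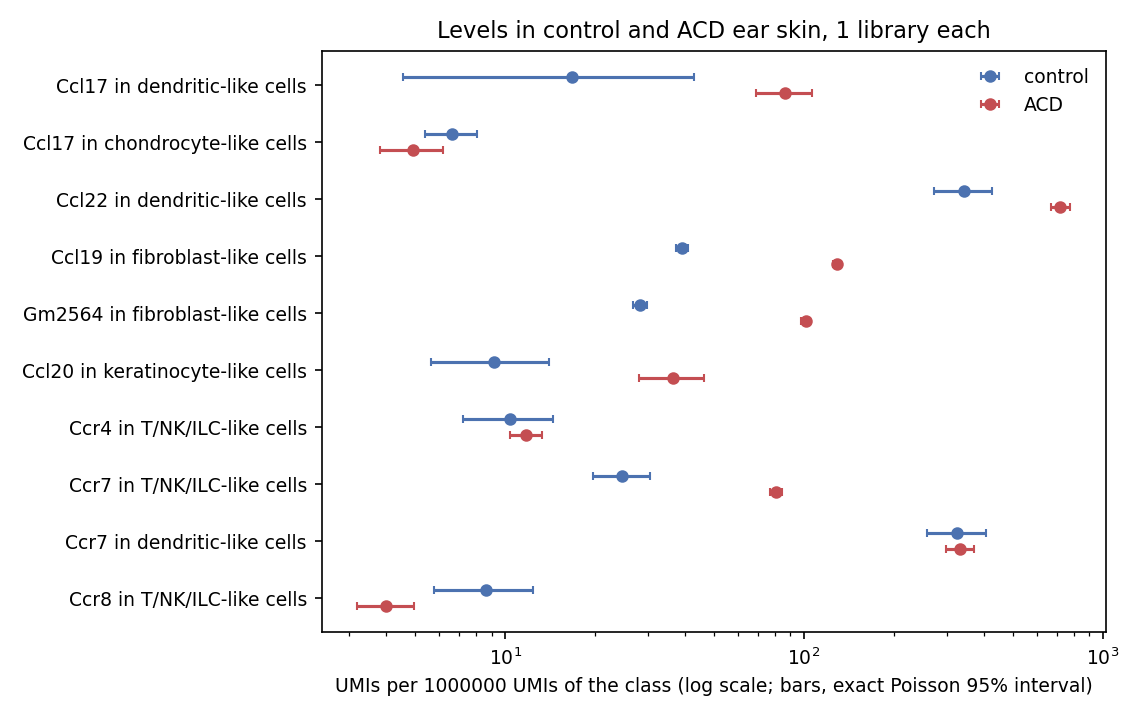
Level of each member (UMIs per 1000000, log axis, exact 95% Poisson intervals) in its main cell classes, control and ACD. *Ccl19* in dFB-like cells and *Ccr7* in T/NK/ILC-like cells have intervals that do not overlap, while those of *Ccr4* in T/NK/ILC-like cells (10.4 and 11.8) do.

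*Ccr4* (ENSMUSG00000047898, chr9:114490316-114504916, minus strand), the receptor for CCL17 and CCL22, had more UMIs in ACD, with more T/NK/ILC-like cells, and a level in those cells whose interval included no difference. T/NK/ILC-like cells made up 6.54% of control and 28.0% of ACD cells. They had 35 *Ccr4* UMIs in 30 control cells and 250 UMIs in 200 ACD cells. Levels were 10.4 (7.23 to 14.4) and 11.8 (10.4 to 13.3), a log2 ratio of 0.18 (-0.33 to 0.73). After thinning, 1.46% and 1.88% of T/NK/ILC-like cells had a *Ccr4* UMI (unthinned 3.75% and 6.13%).

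The *Ccr4* level in ACD was highest in regulatory T (Treg)-like cells among the T subsets, at 44.4 (35.2 to 55.2) on 81 UMIs in 324 cells. It was 29.4 in ILC2-like cells on 10 UMIs, 16.8 (13.2 to 21.1) in CD4+ T-like cells, 7.12 in CD8+ T-like cells, 4.22 in gamma delta T-like cells and 2.23 in dendritic epidermal T cell (DETC)-like cells. The Treg-like and CD4+ T-like intervals did not overlap. Control Treg-like cells had 7 UMIs in 22 cells, a level of 87.3 (35.1 to 180) and a log2 ratio of -0.98 (-2.08 to 0.38). Control CD4+ T-like cells had 5 UMIs in 35 cells, a level of 24.6 and a log2 ratio of -0.55 (-1.84 to 1.11). Neither interval excluded equal levels, and the control subsets were small. NK/ILC1-like and DC-like cells had no *Ccr4* UMI, and in DC-like cells 3 counts would have been levels of 12.5 and 3.01. Of the 621 ACD CD4+ T-like cells, 94 (15.1%) had at least 3 of 4 other Treg markers, and their part in the CD4+ T-like values was not tested.

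*Ccr7* (ENSMUSG00000037944, chr11:99144196-99155077, minus strand) encodes the lymph-node-homing receptor for CCL19 and CCL21. T/NK/ILC-like cells had 83 UMIs in 66 of 799 control cells, a level of 24.6 (19.6 to 30.5), and 1713 UMIs in 803 of 3264 ACD cells, a level of 80.6 (76.9 to 84.6). The log2 ratio was 1.71 (1.39 to 2.05). After thinning, 3.97% (2.69 to 5.62%) of control and 12.3% (11.2 to 13.5%) of ACD T/NK/ILC-like cells had a *Ccr7* UMI, against 0 and 0.156% of chondrocyte-like cells. Unthinned shares were 8.26% and 24.6%. Of the 3 receptors, all counted in T/NK/ILC-like cells, *Ccr7* was at least 2-fold higher, *Ccr8* at least 2-fold lower and *Ccr4* neither, beside 4.74% higher and 7.92% lower of 10448 genes.

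B-like cells, 3 in control and 32 in ACD, had 9 and 58 *Ccr7* UMIs.

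The *Ccr7* level differed by T subset. In ACD it was 144 (127 to 163) in Treg-like, 117 (107 to 127) in CD4+ T-like, 82.2 (74.9 to 90.03) in CD8+ T-like, 58.8 in DETC-like, 48.2 in NK/ILC1-like, 29.4 in ILC2-like and 25.9 in gamma delta T-like cells. Intervals of Treg-like and CD4+ T-like cells nearly touched, with bounds of 127.195 and 127.162, those of CD4+ and CD8+ T-like cells were apart, and ILC2-like and gamma delta T-like cells were within their intervals of each other. CD4+ T-like cells had 12 UMIs in control, a level of 59.1 (30.5 to 103) and a log2 ratio of 0.98 (0.16 to 1.94). Treg-like cells had 1 control UMI, a level of 12.5 (0.316 to 69.5), and the log2 ratio was 3.53 (1.04 to 8.84). CD8+ T-like cells had 3 control UMIs and a log2 ratio of 0.96 (-0.59 to 3.25). DETC-like cells, named after the resident T cells of mouse epidermis, had 16 and 79 UMIs and a log2 ratio of 1.53 (0.75 to 2.41). They were set by the 5 of 7 listed markers found in the data, in cells with no *Cd4*, *Cd8a*, *Cd8b1* or *Foxp3* UMI. Whether other T cells in which those UMIs were missed entered this group was not tested. Gamma delta T-like cells had 16 and 43 UMIs and a log2 ratio of 0.10 (-0.76 to 1.03), an interval that does not reach that of all T/NK/ILC-like cells. The make-up of T/NK/ILC-like cells also differed between the libraries, with 35 CD4+, 15 CD8+ and 22 Treg-like cells of 799 in control and 621, 680 and 324 of 3264 in ACD.

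**Figure D5:**
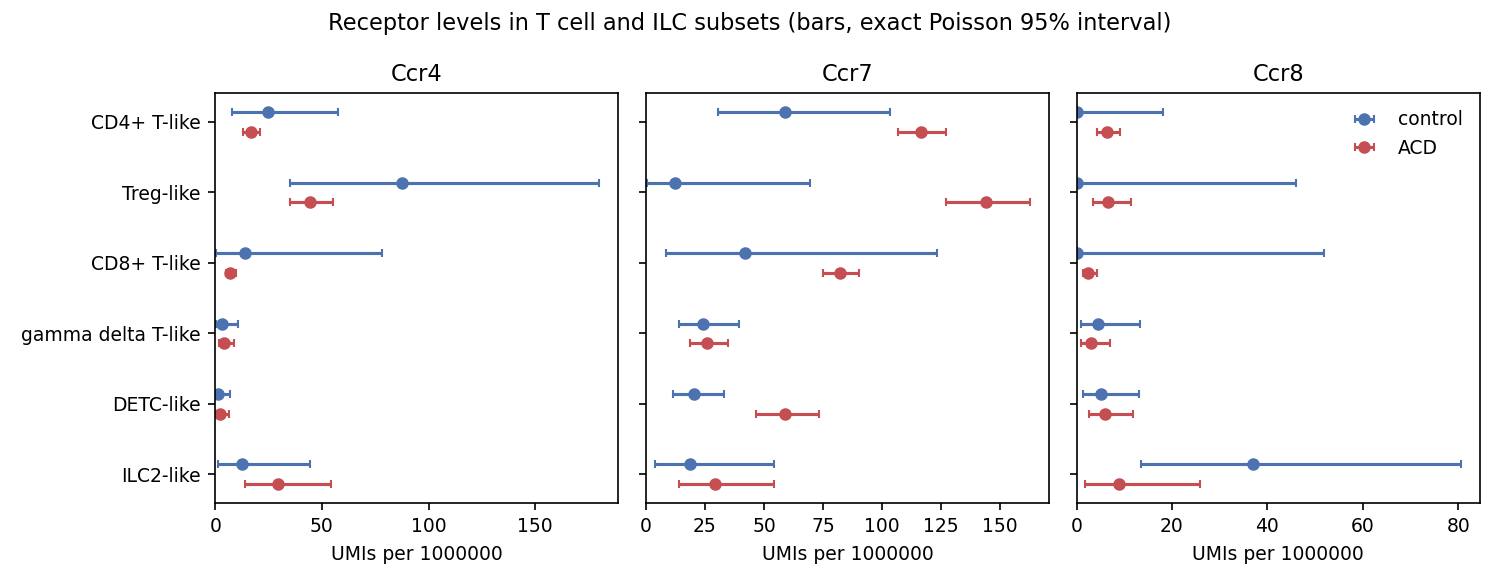
Levels of *Ccr4*, *Ccr7* and *Ccr8* (UMIs per 1000000, exact 95% Poisson intervals) in the T/NK/ILC-like subsets of control and ACD. Control intervals are wide because the CD4+, CD8+ and Treg-like subsets held 35, 15 and 22 cells, and the ACD values of *Ccr7* are highest in Treg-like cells at 144.

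DC-like cells gave *Ccr7* levels that were nearly equal, 78 UMIs in 3 control cells at 325 (257 to 406) and 331 UMIs in 26 ACD cells at 332 (298 to 370). The log2 ratio was 0.03 (-0.33 to 0.41). Mature DC-like cells held all 78 control UMIs and 288 of the ACD UMIs, at levels of 2381 and 1746 and a log2 ratio of -0.45 (-0.81 to -0.07). The DC-like ratio moved with the cells admitted. Without the 1 top cell of each library it was 0.68, with clusters in place of marker classes -0.47, and -0.85 when every cell with 8 or more mature DC markers was counted as DC-like, so no direction is given for it. Control *Ccr7* also lay in 1 ambiguous cell with 48 UMIs and in 1 dFB-like cell with 41 UMIs that had 10 mature DC markers. In all, 7 control and 16 ACD cells of any class had 8 or more such markers, and they held 60.8% of control and 13.2% of ACD *Ccr7* UMIs. The same cells held 93.0% and 89.8% of *Ccl22* UMIs. Thus the control *Ccr7* total came largely from a few cells with mature DC markers and the ACD total from T/NK/ILC-like cells.

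*Ccr8* (ENSMUSG00000042262, chr9:120092114-120094906) encodes a receptor of skin-resident T cells. T/NK/ILC-like cells had 29 UMIs in 29 control cells and 85 UMIs in 83 ACD cells. Levels were 8.60 (5.76 to 12.4) and 4.001 (3.20 to 4.95), a log2 ratio of -1.10 (-1.73 to -0.44). After thinning, 1.98% of control and 0.909% of ACD T/NK/ILC-like cells had a UMI, against 0 and 0.0779% of chondrocyte-like cells. Unthinned shares were 3.63% and 2.54%.

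The T/NK/ILC-like subsets gave few *Ccr8* UMIs each. ILC2-like cells had 6 and 3 UMIs, levels of 37.0 (13.6 to 80.5) and 8.82 (1.82 to 25.8). Gamma delta T-like cells had 3 and 5 and DETC-like cells 4 and 8, at levels of 4.53 and 3.01 and of 5.08 and 5.96. CD4+ T-like cells had 0 control and 28 ACD UMIs (6.35), and Treg-like cells 0 and 12 (6.57). In these 2 subsets 3 control counts would have been levels of 14.8 and 37.4, so no difference was detectable at this depth. T/NK/ILC-like cells of no named subset gave 16 UMIs in control and 15 in ACD, levels of 11.4 and 3.18.

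The receptors overlapped in part of the T/NK/ILC-like cells. In ACD, 78 of 200 cells with *Ccr4* also had *Ccr7* (39.0%), and in control 5 of 30 (16.7%). Of 83 ACD cells with *Ccr8*, 28 had *Ccr7* (33.7%), and 7 cells had both *Ccr4* and *Ccr8*. A cell with no UMI of a receptor may still express it at these depths.

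Of 28 further genes of these axes, listed with earlier results of these data known, 17 had 50 or more UMIs in T/NK/ILC-like cells, and 6 were at least 2-fold higher in ACD and 2 lower, beside 4.74% and 7.92% of all genes counted there. The 6 include *Ccl21a* (10 and 133 UMIs) and *Ccl8* (0 and 79), which lay mainly in endothelial-like and dFB-like cells. Whether stray transcripts of those cells entered the T/NK/ILC-like counts was not tested. *Fut7*, whose enzyme makes skin-homing selectin ligands, had levels of 5.34 and 13.2 (log2 ratio 1.30). *Ccl1*, a CCR8 ligand, had 8.90 and 51.5 (2.53). Its 30 control UMIs lay in 5 cells, and 1 ACD cell held 202 of 1093 UMIs. CD8+ T-like cells had 0 control and 432 ACD UMIs and CD4+ T-like cells levels of 113 and 120. Control CD8+ T-like cells numbered 15, so the log2 ratio there is only a lower bound, 0.87. The 2 genes that were lower encode skin-homing receptors, *Ccr6* for CCL20 at 128 and 29.1 (-2.13) and *Ccr10* at 14.2 and 6.54 (-1.12). Within gamma delta T-like cells *Ccr6* had levels of 131 and 79.5 (-0.73), and within ILC2-like cells 160 and 173. *Ccr6* had 8 control and 43 ACD UMIs in CD4+ T-like cells, a log2 ratio of -2.01. The ratio was -1.47 in CD8+ T-like cells (2 and 57 UMIs) and -2.07 in Treg-like cells (7 and 38). These 3 subsets had few control UMIs. The median log2 ratio of the 17 genes was 0.30, and that of all 10448 genes counted in these cells was -0.14.

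In dFB-like cells 18 of the 28 genes were counted, and 6 were at least 2-fold higher in ACD and 0 lower, beside 3.47% and 1.06% of all genes counted, with a median log2 ratio of 0.18, against -0.01 over those genes. *Ccl8*, a CCR8 ligand, had levels of 17.3 and 109 (2.66). *Ackr4*, a scavenger of CCL19 and CCL21, had 24.7 and 23.0, and was not at least 2-fold higher in ACD. In DC-like cells 10 were counted, 3 were higher and 0 lower, beside 6.84% and 1.85% of all genes counted. *Cd40*, a costimulatory receptor gene, was 1 of the 3, at 58.3 and 130 (1.15). In endothelial-like cells 10 were counted, 2 were higher and 0 lower, beside 3.85% and 2.78% of all genes counted. *Ccl21a*, the CCR7 ligand of lymphatic vessels, had levels of 16271 and 20688 in endothelial-like cells, a log2 ratio of 0.35 (0.32 to 0.38). In lymphatic endothelial-like cells alone *Ccl21a* had 18311 and 31877 (0.80). The gene has near-identical copies between which reads cannot be assigned with certainty.

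The genes whose levels ran most like each member over 26 points, which are cell classes within libraries of at least 20 cells, were named by Pearson correlation of log2 levels over 15074 genes. For *Ccl19* they were *Apela* (0.988), *Lgi2* (0.984) and *Cyp2e1* (0.983). For *Ccl20* they were the epidermal genes *Klk5* (0.996), *Gsdma* (0.995) and *Serpinb3b* (0.994), for *Ccl17* *Upb1* (0.959), *Siglech* (0.947) and *Gm13546* (0.935), and for *Ccl22* *Cd209a* (0.998), *Cd209d* (0.996) and *Flt3* (0.993). *Cd209a* and *Flt3* were markers of the DC-like gate, and *Cd209d* was a marker of a DC subset only. Of the receptors, *Ccr4* ran with *Sh2d2a* (0.976), *Blk* (0.974) and *Nlrc3* (0.959), *Ccr7* with *Btla* (0.951), *BC035044* (0.945) and *Irf4* (0.939), and *Ccr8* with *Klra5* (0.994), *Gm26517* (0.991) and *Myo3b* (0.990). Points of a library share its depth and processing, and the correlations describe these 2 libraries.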

How the data were processed

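Ear skin cells of 1 control and 1 ACD library were profiled by droplet single-cell RNA-seq with 3' UMI tags. The authors deposited raw UMI counts for each gene in each barcode with Cell Ranger 3.1.0 and mm10 named in the submitters' processing notes. The filter's UMI limit, printed in the methods as a minimum, was taken here as a maximum. Every value was computed from these counts with Python 3.11.15, numpy 2.4.6, scipy 1.17.1, pandas 2.3.3, scanpy 1.11.5, igraph 0.11.9, Biopython 1.88 and matplotlib 3.10.9.

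A cell was put into the class with the highest marker score if at least 3 of its markers were present, and was ambiguous if the second score exceeded 0.6 of the best. CD4+, CD8+ and Treg-like cells were set by UMIs of *Cd4*, *Cd8a* or *Cd8b1*, and *Foxp3*. Other T subsets were set by marker scores in cells without those UMIs, and DC subsets by scores. T cell receptor genes were missing from the gene table. Doublets were not removed in the results as reported, and Scrublet called 4.77% of control and 3.53% of ACD cells, left out as an alternative. Leading genes of all named classes held more of their own markers than of any other. Treg-like cells had 2 ILC2 markers (Il1rl1, Klrg1) beside 6 of their own, and DC-like cells only Cd207 of their own, next to MHC class II genes. Gates, members and gene lists were chosen with earlier results of these data known.

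Intervals are exact, Poisson for levels, Clopper-Pearson for shares and conditional binomial for ratios, at 95%. With no control UMIs, a ratio takes 3 counts and is a lower bound. Thinning drew 2000 UMIs a cell without replacement and left out shallower cells. A gene was counted in a class with 50 UMIs over both libraries, and called at 2-fold. Likeness used classes of at least 20 cells and 10 added to each level. Named genes were the members, genes of the 28-gene list with at least 10 UMIs in the class described, and the 3 genes most like each member, with markers as gates only, and the values of 1 listed gene are not reported here. Positions are from GENCODE M21 on GRCm38, in which 27722 of the 27998 identifiers were found, and promoters from RefSeq, which had no entry here for *Ccr7*. Interval and thinning code was tested on simulated data. The study's cluster names and its other assays were not used here, so classes need not match its clusters.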

Additional observations from a re-analysis of the deposited data

Results flagged for a closer look

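In 4 comparisons the log2 ratio of a member pointed in opposite directions in a pair of cell classes, and the difference between the classes was not tested. *Ccl17* had 2.37 in DC-like cells, against -0.35 in dFB-like cells and -0.43 in chondrocyte-like cells. *Ccr7* had 1.71 in T/NK/ILC-like cells and 2.54 in chondrocyte-like cells, against -0.40 in dFB-like cells. That dFB-like value has 48 control UMIs, of which 41 lie in the 1 cell with 10 mature DC markers, and the chondrocyte-like value rests on 4 and 21 UMIs. *Ccl20* had a signal in data the filter left out, with 316 ACD UMIs and 83 control UMIs in removed barcodes.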

How the results depend on the processing

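No paired analysis was possible because each condition was 1 library and the only shared replicate number is 1. Of the alternatives, at least 500 genes with under 5% mitochondrial UMIs, median-of-ratios size factors and leaving out shared barcodes (chosen after seeing the data) left every log2 ratio of the main member results within its counting interval. Over all alternatives, 107 such values did so, 22 moved and 1 reversed. The cause of these moves was not tested. Log2 ratios that moved were, with the mean over cells, 1.37 for *Ccl19* and 1.41 for its sum with *Gm2564* in dFB-like cells and 0.42 for *Ccr7* in DC-like cells. With thinning to 2000 UMIs they were 1.41 for *Ccl19*, 1.44 for the sum, 0.55 for *Ccl17* in DC-like cells as a lower bound, and -0.52 for *Ccl20* in keratinocyte-like cells on 2 and 1 UMIs. A second thinning draw, the one behind the shares of cells and added after seeing the data, gave 1.42 for *Ccl19*, 1.45 for the sum, 0.70 for *Ccr7* in DC-like cells and 0.23 for *Ccl17* in chondrocyte-like cells (-0.65 in the first), and did not reverse *Ccl20* (1.80) or give a bound for *Ccl17* in DC-like cells (2.57). Thinned values of *Ccl17* and *Ccl20* thus depended on the draw. Without the 1 top cell of each library they were 3.44 for *Ccl22* and 0.68 for *Ccr7* in DC-like cells and 0.37 for *Ccl20*. With 1 more marker required they were 3.55 for *Ccl22*, 4.36 for *Ccl17* and 0.58 for *Ccr7* in DC-like cells. All deposited barcodes gave 0.71 for *Ccl20* and 1.70 for the sum. Leiden clusters gave 0.22 for *Ccl22* and -0.47 for *Ccr7* in DC-like cells. Counting cells with 8 or more mature DC markers as DC-like, chosen after seeing the data, gave 0.25 and -0.85.

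Of the shares of ACD UMIs in the main class, 61 stayed within their counting interval and 35 moved. The mean over cells gave 94.3% for *Ccr4*, 74.6% for *Ccr7* and 40.2% for *Ccl20*. Thinning gave 88.8% for *Ccl22*, 93.2% for *Ccr4*, 76.3% for *Ccr7*, 46.2% for *Ccl20*, 100% for *Ccr8* and 28.6% for *Ccl17* in DC-like cells, from a draw apart from that of the ratios, and the draw behind the shares of cells gave 94.3% for *Ccr4*, 76.2% for *Ccr7*, 38.5% for *Ccl20*, 93.5% for *Ccr8* and 45.2% for *Ccl17* in DC-like cells. Without the top cell *Ccl20* had 26.3% and *Ccl17* in DC-like cells 31.7%, and 1 more marker gave 78.0% for *Ccl22*. With ambiguous cells in their best class the shares were 42.4% for *Ccl17* in chondrocyte-like cells, 93.8% for *Ccl22*, 93.9% for *Ccr4*, 97.8% for *Ccl19* and 72.5% for *Ccr7*. All barcodes gave 88.0% for *Ccl22*, 92.0% for *Ccl19* and 85.8% for *Ccl20*. Without Scrublet calls they were 93.6% for *Ccr4*, 96.5% for *Ccl19*, 73.3% for *Ccr7* and 95.5% for *Ccr8*. Leiden clusters gave 39.7% for *Ccl17* in chondrocyte-like cells, 95.8% for *Ccl22*, 93.2% for *Ccr4*, 96.7% for *Ccl19*, 71.8% for *Ccr7* and 92% for *Ccr8*. Among the further genes, counting from 20 UMIs took the number lower from 0 to 1 in endothelial-like and from 2 to 3 in T/NK/ILC-like cells, and the number higher from 6 to 8 in dFB-like and from 3 to 4 in DC-like cells. Adding 1 in place of 10 to each level left 1 of the 3 most like genes for *Ccl17*, *Ccr4*, *Ccl19* and *Ccl20*. Control values are limited by few cells in the CD4+, CD8+ and Treg-like subsets (35, 15 and 22) and among DC-like cells (26).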

Other observations

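*Cd274*, which encodes the checkpoint ligand PD-L1, was higher in ACD in dFB-like, endothelial-like, T/NK/ILC-like, DC-like and chondrocyte-like cells. *Ccl8*, a CCR8 ligand, was higher in ACD in dFB-like cells. *Cd274* levels were 1.65 in control and 18.5 in ACD in dFB-like cells (log2 ratio 3.49), 4.19 and 61.7 in endothelial-like cells (3.88), and 24.3 and 84.4 in T/NK/ILC-like cells (1.79). *Cd274* had 3 and 78 UMIs in DC-like cells (2.65) and 9 and 51 in chondrocyte-like cells (2.65). In keratinocyte-like cells it had 14 and 9 UMIs and a log2 ratio of -0.27 (-1.66 to 1.04). *Ccl8* had levels of 2758 and 1077 in macrophage-like cells, a log2 ratio of -1.36 (-1.61 to -1.11), so it was lower there while dFB-like cells had the higher level in ACD. In chondrocyte-like cells *Ccl8* had 1 control UMI and 133 ACD UMIs, of which 105 lay in 1 cell.

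Leiden clustering, which used none of the gates, placed 3574 of the ACD *Ccl19* UMIs (76.0%) in 1 cluster with 7 control and 481 ACD cells. A cluster made almost wholly of 1 library cannot be told apart from a trait of that library. In control, the clusters with the most *Ccl19* held 735 UMIs in 1080 cells and 671 in 1086 cells.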
